A study of Mus musculus with 10 samples.

Results

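The genes described here are the interleukins and interleukin receptors, taken as every row of the deposited count table whose gene name starts with Il followed by a digit. The table holds 85 such rows among 55421, with 83 different symbols, since Il11ra2 is listed on 3 rows. Of the 85 rows, 82 had a count in at least 1 library and 70 passed the filter on low counts, out of 18509 genes that passed it in all. The 70 comprised 26 ligands, 36 receptor chains, 3 antagonists, 3 decoy receptors, 1 antisense transcript (Il1bos) and 1 enzyme (Il4i1).

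The study used db/db mice, a strain with a mutated leptin receptor that becomes obese and diabetic, and made skin ulcers in them by surgery. RNA was taken from the ulcer tissue after 7 days of administration, from 5 ulcers given saline and 5 given saline together with Fu Huang ointment, a topical preparation. Both groups are therefore diabetic ulcers of the same strain, and unwounded skin and non-diabetic wounds are not analysed here. The labels do not say whether each library came from its own mouse, so the p-values measure only the spread between these samples, which may partly be technical. Libraries are named saline 1 to 5 and ointment 1 to 5 by the numbers in their labels, and held between 47807353 and 62896034 counts.

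Interleukins are secreted signalling proteins made by leukocytes, keratinocytes, fibroblasts and endothelial cells. Each acts through a pair or trio of receptor chains on the target cell. Members of the interleukin 1 family signal through MyD88 and NF-kB, those of the interleukin 6, 10 and 12 families and those that share the common gamma chain signal through Janus kinases and STAT factors, and interleukin 17 signals through Act1. Decoy receptors and receptor antagonists bind the same partners without passing on a signal. In skin wounds, interleukins 1 and 6 belong to the early inflammatory phase, and the IL-36 group within the interleukin 1 family is made mainly by the epidermis.

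Levels are normalized CPM (counts scaled to library size), with library sizes adjusted by the trimmed mean of M-values. Differences are log2 fold changes of ointment over saline with their standard error (SE), tested with the quasi-likelihood F-test of edgeR. The p-values carry the Benjamini-Hochberg adjustment over the 18509 genes, with 0.05 as the threshold. Of the 70 tested interleukin genes, 3 passed, which is 4.29% against 1.67% of all genes tested. All 3 were lower with the ointment (0.983% of all genes passed in that direction). They were Il1f6, which encodes IL-36 alpha, Il20rb, a receptor chain for interleukins 19, 20 and 24, and Il17rc, a receptor chain for interleukins 17A and 17F. None passed in the higher direction with edgeR (0.692% of all genes did), although 11 had a positive and 10 a negative change at an unadjusted p under 0.05, where the shares of all genes were 8.59% and 8.56%. DESeq2 called 6 genes higher (Il6, Il12a, Il17ra, Il18rap, Il1r2 and Il7r) and 6 lower (the 3 above with Il1f5, Il18 and Il20ra), 17.1% of the 70 against 9.06% of all genes, and limma-voom called 3 genes in all, 4.29% against 1.91%. In 8 of the 10 edgeR fits that left out 1 library, Il1f6 alone passed, while the calls over all genes fell from 310 to between 102 and 184 in those fits. The log2 fold changes over the 10 fits stayed between -1.84 and -1.48 for Il1f6, -1.52 and -1.20 for Il20rb, and -0.70 and -0.57 for Il17rc. Without both saline 1 and ointment 5, none of the 70 passed in edgeR (59 of 18725 genes did), 14 stood at an unadjusted p under 0.05, and the adjusted p was 0.0696 for Il1f6, 0.151 for Il20rb and 0.126 for Il17rc.

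Among the 70 genes, 46 had a positive log2 fold change, 65.7% against 49.7% of all genes tested. Their median log2 fold change was 0.30, and that of all genes tested was -0.0025. At an unadjusted p under 0.05 stood 21 of the 70, or 30.0%, against 17.1% of all genes. The values of the 5 saline and the 5 ointment libraries did not overlap for 5 of the 70 genes, 7.14% against 6.54% of all genes, so on this measure the share was near the background. These 5 were Il18rap, higher in every ointment library, and Il1f6, Il20rb, Il17rc and Il20ra, lower in every ointment library. Among the genes described below, Il1f8, Il1f9, Il1rl2, Il11ra2, Il17rd, Il17re, Il18r1, Il22ra1 and Il1bos lie outside the rule for named genes. So does Il5, which was too low to test. All of these were chosen after their values were seen.

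**Figure D1:**
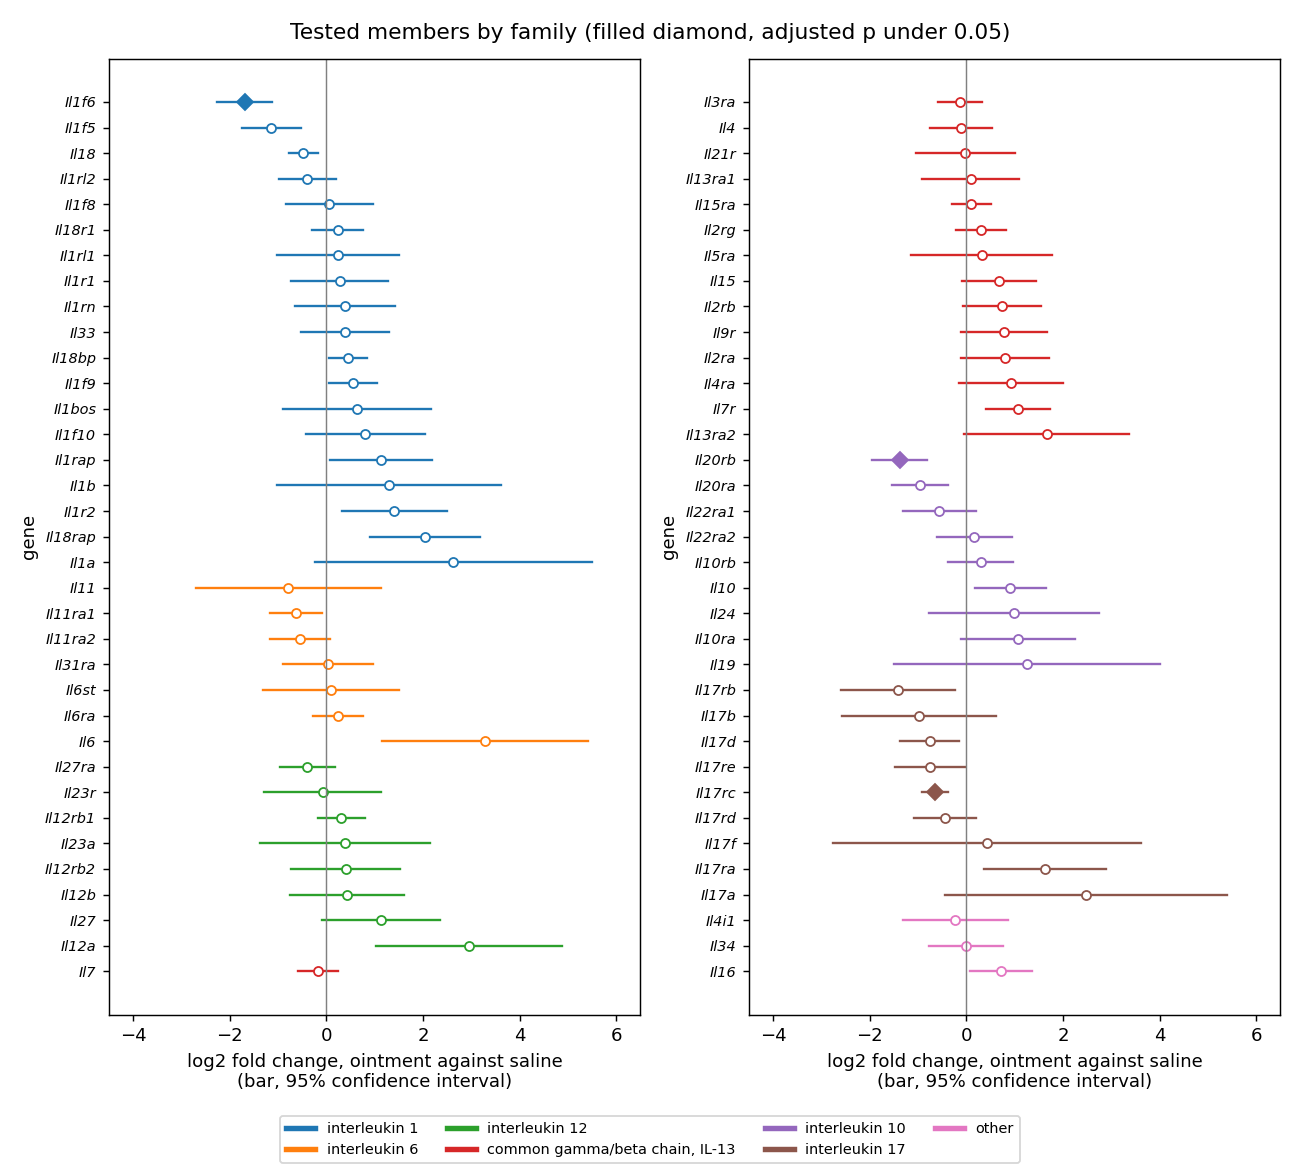
Log2 fold change of ointment over saline (horizontal axis) for the 70 tested interleukin genes (vertical axis), coloured by family, with bars for the 95% confidence interval from edgeR and filled diamonds for an adjusted p under 0.05. Il1f6, Il20rb and Il17rc are the filled diamonds, all below 0, and the 4 values farthest above 0, of Il6, Il12a, Il1a and Il17a, have wide intervals.

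Il1f6 (ENSMUSG00000026984, GRCm38 chr2:24215418-24225702) stands in a cluster of interleukin 1 family ligands. In the saline ulcers it measured 47.5, 73.2, 52.5, 40.1 and 27.2 CPM in libraries 1 to 5. In the ointment ulcers it measured 12.3, 11.3, 15.7, 15.6 and 19.5 CPM. Every ointment library lay below every saline library, the nearest being ointment 5 and saline 5. The mean fell from 48.1 ± 16.97 to 14.9 ± 3.21 CPM (SD, n = 5 each), 3.23-fold lower, with a log2 fold change of -1.69 (SE 0.26, 95% confidence interval -2.27 to -1.11, edgeR adjusted p = 0.0165).

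The other IL-36 ligand genes of the cluster on chromosome 2 did not pass the test. Il1f9, the gene of IL-36 gamma, measured 55.0, 35.7, 29.1, 33.9 and 24.3 CPM in the saline ulcers and 38.7, 63.02, 51.3, 47.6 and 60.7 CPM in the ointment ulcers, so the groups overlapped through saline 1. Its log2 fold change was 0.55 (SE 0.22, edgeR adjusted p = 0.24). The ratio of Il1f9 to Il1f6 normalized counts, a pair chosen after its values were seen, ranged from 0.487 to 1.16 in the saline libraries and from 3.05 to 5.56 in the ointment libraries. The ratio was thus higher in each ointment library than in any saline library, which largely repeats the separation of the groups by Il1f6 alone. Il1f8, the gene of IL-36 beta, had a log2 fold change of 0.07 (SE 0.40, edgeR adjusted p = 0.963).

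Il1f5 encodes the IL-36 receptor antagonist, which blocks the same receptor. It measured 66.2, 48.7, 50.1, 35.3 and 24.9 CPM in the saline ulcers and 21.4, 16.7, 19.9, 29.8 and 14.9 CPM in the ointment ulcers. The groups overlapped only because ointment 4 lay above saline 5. Its log2 fold change of -1.13 (SE 0.28) missed the threshold (edgeR adjusted p = 0.0725). The receptor chain that these ligands and their antagonist share, Il1rl2, measured 72.9 ± 27.0 CPM with saline and 55.7 ± 16.4 CPM with ointment (SD, n = 5 each), a log2 fold change of -0.39 (edgeR adjusted p = 0.523).

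Il20rb (ENSMUSG00000044244, chr9:100457719-100486788) pairs with Il20ra, or with the chain encoded by Il22ra1, to form receptors found on keratinocytes. It measured 26.4, 32.2, 18.4, 17.8 and 16.6 CPM in the saline ulcers and 6.99, 9.92, 5.78, 11.9 and 8.12 CPM in the ointment ulcers. The highest ointment library, ointment 4, lay below the lowest saline library, saline 5. The mean fell from 22.3 ± 6.77 to 8.54 ± 2.41 CPM (SD, n = 5 each), a log2 fold change of -1.38 (SE 0.26, edgeR adjusted p = 0.0309). It passed in 2 of the 10 edgeR fits that left out 1 library, with adjusted p of up to 0.0806 and log2 fold changes of -1.52 to -1.20.

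Its partner Il20ra measured 7.56, 6.69, 5.12, 8.07 and 5.48 CPM with saline and 2.49, 4.60, 2.11, 4.44 and 3.24 CPM with ointment. Here too the groups did not overlap, and the log2 fold change was -0.96 (SE 0.26), but the test was not passed (edgeR adjusted p = 0.0979). The third chain, Il22ra1, had a log2 fold change of -0.56 (SE 0.34, edgeR adjusted p = 0.457). The ligands of these receptors are Il19 and Il24, with values given below, and Il20, which was too low to test.

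Il17rc (ENSMUSG00000030281, chr6:113471427-113483140) measured 86.9, 69.0, 68.9, 67.3 and 58.6 CPM in the saline ulcers. With ointment it measured 44.5, 48.2, 39.6, 50.1 and 41.9 CPM. Saline 1 stood above the other saline libraries, which lay between 58.6 and 69.0 CPM, and the groups did not overlap. The mean fell from 70.1 ± 10.3 to 44.9 ± 4.32 CPM (SD, n = 5 each), a log2 fold change of -0.64 (SE 0.12, edgeR adjusted p = 0.0325). Like Il20rb, it passed in 2 of the 10 edgeR fits that left out 1 library, with adjusted p of up to 0.0844 and log2 fold changes of -0.70 to -0.57. By contrast, Il1f6 passed in all 10, with adjusted p between 0.00915 and 0.0488.

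Of the 5 tested interleukin 17 receptor chains, 4 had a negative and 1 a positive log2 fold change. Il17re, which lies directly beside Il17rc, encodes the receptor chain for interleukin 17C and had a log2 fold change of -0.76 (SE 0.33, edgeR adjusted p = 0.27). Il17rb, the chain for interleukins 17B and 25, stood at -1.41 (SE 0.53, edgeR adjusted p = 0.208) from a low level of 2.03 ± 0.547 CPM with saline (SD, n = 5). Il17rd, a further chain, stood at -0.44 (edgeR adjusted p = 0.506). The exception was Il17ra, the chain common to these receptors, at 1.62 (SE 0.57, edgeR adjusted p = 0.177).

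Il17ra measured 10.2, 21.9, 50.2, 46.2 and 56.0 CPM with saline and 44.1, 128, 111, 48.7 and 235 CPM with ointment. Ointment 1 and 4 lay within the saline range and the other 3 above it. The ratio of Il17ra to Il17rc normalized counts, a pair chosen after its values were seen, had a median of 0.686 in the saline libraries (0.118 to 0.955) and of 2.66 in the ointment libraries (0.973 to 5.60). These ranges did not overlap, though only by the small gap between 0.955 and 0.973, and Il17rc alone already separated the groups.

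**Figure D2:**
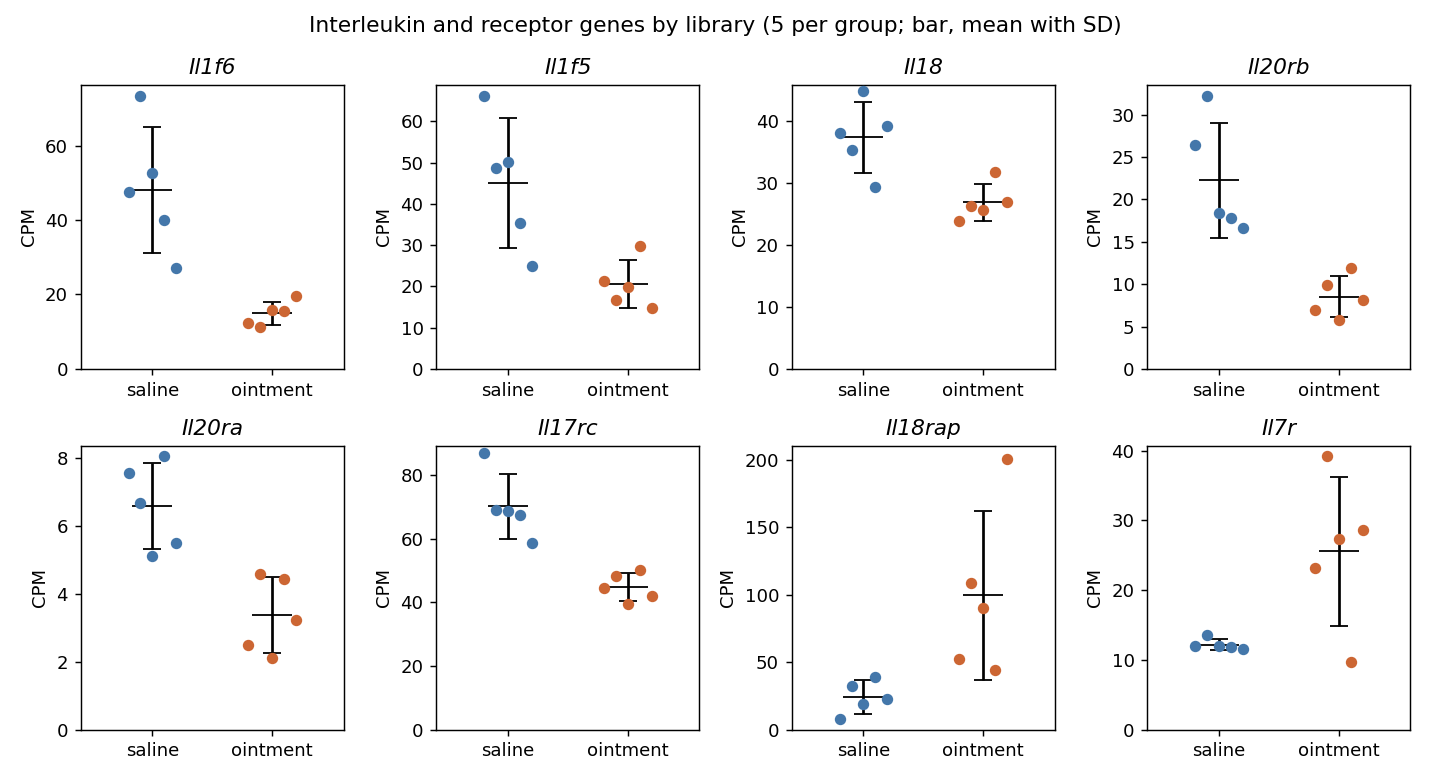
Level in CPM (vertical axis, linear from 0) of 8 genes in the 5 saline and 5 ointment libraries, with 1 point per library and bars for the mean with SD. The groups do not overlap for Il1f6, Il20rb, Il20ra, Il17rc and Il18rap, and overlap by 1 ointment library, ointment 4, for Il1f5, Il18 and Il7r.

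Markers of cell types were read beside these 3 changes. Skin was represented in all libraries, with 5 fibroblast markers summing to 11030 to 31990 CPM and 5 endothelial markers to 330.2 to 684.3 CPM. Of 8 keratinocyte markers, all 8 had a negative log2 fold change (49.7% of all genes tested had a positive one) and none passed the test in edgeR. At an unadjusted edgeR p under 0.05, 2 were lower (8.56% of all genes tested). DESeq2 called those 2 lower (it called 9.06% of all genes in either direction). The 2 were the suprabasal keratins Krt1 (log2 fold change -2.03, edgeR adjusted p = 0.0564) and Krt10 (log2 fold change -1.80, edgeR adjusted p = 0.0778). The summed level of the 8 ran from 19870 to 28380 CPM in the saline libraries and from 15560 to 28280 CPM in the ointment libraries, with no marker at 0. Their part in the lower Il1f6, Il20rb and Il17rc was not tested. In bulk tissue, fewer cells of a type and less RNA per cell cannot be told apart.

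Il6, Il12a, Il1a and Il17a, which had the largest positive changes, showed a different picture, in which 1 library stood far above the others. A gene was counted as such when its highest library was at least 3 times the next and at least 1 CPM. This held for 7 of the 70 interleukin genes, or 10%, against 0.621% of all genes tested. In 6 of the 7 the high library was ointment 5, namely Il1a, Il17a, Il1b, Il6, Il12a and Il19, and in Il11 it was saline 2. Among all genes tested, 0.249% met the same condition in ointment 5.

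The promoters of Il1a, Il1b and Il6, the 3 of these 6 genes with the highest CPM in ointment 5, are shown. That of Il17rc, a gene that passed the test as lower with the ointment, is shown beside them. The sequences are the bases up to 250 before the transcript start from RefSeq (GRCm38.p6), 5′ to 3′ on the gene's strand. For Il17rc the 28 bases next to the start lie in an annotated exon and are left out, so 222 bases are shown. Capitals mark matches to a pattern for the kappa B element (3 G, any 2 bases, 3 T, 2 C) or for the AP-1 element (TGANTCA), searched on both strands. Other forms of either element were not searched. The genes printed were picked by name, and Il17rc is the only gene among them that passed the test. The source of the promoters held no entry for Il1f6. Il20rb was left out of the printed genes and was not among the interleukin symbols found with either match.
Il1a, chr2:129309973-129310222, minus strand: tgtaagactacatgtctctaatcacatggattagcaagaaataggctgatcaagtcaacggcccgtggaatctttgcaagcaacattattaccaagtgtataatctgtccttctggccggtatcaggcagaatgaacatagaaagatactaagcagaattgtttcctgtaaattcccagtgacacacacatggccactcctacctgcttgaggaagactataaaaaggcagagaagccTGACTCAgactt
Il1b, chr2:129371140-129371389, minus strand: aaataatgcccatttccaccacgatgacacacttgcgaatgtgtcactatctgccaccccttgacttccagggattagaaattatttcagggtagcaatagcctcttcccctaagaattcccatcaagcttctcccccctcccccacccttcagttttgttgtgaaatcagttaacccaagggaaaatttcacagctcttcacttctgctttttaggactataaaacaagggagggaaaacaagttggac
Il6, chr5:30012864-30013113, plus strand: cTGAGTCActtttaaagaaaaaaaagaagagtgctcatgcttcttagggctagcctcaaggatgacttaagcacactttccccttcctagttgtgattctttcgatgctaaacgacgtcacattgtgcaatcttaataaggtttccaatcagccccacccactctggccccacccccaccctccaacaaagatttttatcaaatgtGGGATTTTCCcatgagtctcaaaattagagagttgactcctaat
Il17rc, chr6:113471205-113471426, plus strand: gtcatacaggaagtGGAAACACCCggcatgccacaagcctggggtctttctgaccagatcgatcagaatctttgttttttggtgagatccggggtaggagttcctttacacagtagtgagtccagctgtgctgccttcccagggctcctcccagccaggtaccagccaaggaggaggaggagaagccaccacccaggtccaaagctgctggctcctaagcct
The Il6 window held the kappa B letters 44 bases before the start and the AP-1 letters 249 bases before it. The Il1a window held the AP-1 letters 12 bases before the start, the Il17rc window held the kappa B letters on the reverse strand 236 bases before it, and the Il1b window held neither. Among 27025 symbols in the promoter table, 1.65% had the kappa B letters and 7.82% the AP-1 letters in this window. Of the 66 interleukin symbols found there, 6 (9.09%) and 14 (21.2%) did. A match describes letters and shows no binding.

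Il1a and Il1b encode the alarm cytokines interleukin 1 alpha and beta and lie side by side on chromosome 2 (chr2:129299610-129309972 and chr2:129364570-129371139). Il1a measured 9.19, 48.6, 12.7, 39.1 and 42.1 CPM with saline and 20.5, 10.2, 41.9, 12.3 and 852 CPM with ointment. Ointment 5 was 17.5 times the next library, saline 2, while the other 4 ointment libraries lay within the saline range. The log2 fold change of 2.63 (SE 1.29) did not pass the test (edgeR adjusted p = 0.337), and it was -0.51 when ointment 5 was left out.

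Il1b measured 8.86, 838, 662, 892 and 611 CPM with saline and 571, 745, 738, 243 and 5116 CPM with ointment. It had extreme values at both ends, saline 1 far below all others and ointment 5 at 5.74 times the next. Of these, only ointment 5 passed the limit for a library far from the rest of its group, used in a later section. The log2 fold change was 1.30 (SE 1.04, edgeR adjusted p = 0.601), and -0.07 without ointment 5. Il1b had the highest level per transcript length of the 70 genes, at 316 CPM per kb with saline and 777 CPM per kb with ointment. Its antisense transcript Il1bos, which shares 25 bases of exon with it, had a log2 fold change of 0.64 (edgeR adjusted p = 0.721), and without strand information reads from those bases cannot be told apart.

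Il6 (chr5:30013114-30019981), the ligand of the receptor formed by the products of Il6ra and Il6st, measured 0.599, 6.99, 0.975, 3.31 and 3.67 CPM with saline. With ointment it measured 8.03, 22.9, 20.05, 4.25 and 97.3 CPM. Apart from ointment 4, every ointment library lay above every saline library, and ointment 5 was 4.25 times the next. The saline libraries averaged 3.11 ± 2.56 CPM and the ointment libraries 30.5 ± 38.2 CPM (SD, n = 5 each). The log2 fold change of 3.29 (SE 0.96, 95% confidence interval 1.16 to 5.42) was the highest of the 70 but did not pass the test in edgeR (adjusted p = 0.116), whereas DESeq2 called it. It was 2.15 without ointment 5 and 1.88 without both saline 1 and ointment 5.

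The receptor of Il6 showed no comparable difference. Il6ra, the binding chain, stood at a log2 fold change of 0.25 (SE 0.23, edgeR adjusted p = 0.672). Il6st, the signalling chain gp130, varied widely inside both groups, from 51.0 to 283 CPM with saline and from 41.4 to 244 CPM with ointment, with a log2 fold change of 0.10 (SE 0.63, edgeR adjusted p = 0.966). Il11, another ligand that signals through gp130, measured 0.516, 16.3, 0.579, 3.21 and 3.30 CPM with saline and 1.19, 4.61, 2.61, 3.08 and 2.31 CPM with ointment. Its highest library was saline 2, at 3.52 times the next, and its log2 fold change was -0.79 (SE 0.86, edgeR adjusted p = 0.724), or 0.55 without saline 2. The chain for interleukin 11, Il11ra1, measured 322 ± 99.6 CPM with saline and 208 ± 51.7 CPM with ointment (SD, n = 5 each). Its log2 fold change was -0.63 (SE 0.24, edgeR adjusted p = 0.218). How reads divided between it and its near-identical copies under the symbol Il11ra2 was not tested, so that value is uncertain. The Il11ra2 row with counts measured 6.33 CPM with saline and 4.34 CPM with ointment (means). Its log2 fold change was -0.54 (SE 0.28, edgeR adjusted p = 0.363).

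Il12a encodes the p35 chain that interleukin 12 and interleukin 35 share. It measured 0.216, 0.386, 0.314, 1.17 and 0.463 CPM with saline and 0.937, 3.44, 1.35, 0.95 and 13.1 CPM with ointment. The groups overlapped through saline 4, and the log2 fold change was 2.95 (SE 0.87, edgeR adjusted p = 0.119), or 1.71 without ointment 5. Il23a, the p19 chain of interleukin 23, measured 0.250, 3.04, 3.75, 3.64 and 2.45 CPM with saline and 1.13, 2.63, 1.62, 1.20 and 10.7 CPM with ointment. In this gene, 4 ointment libraries lay below the saline median and ointment 5 above all, with a log2 fold change of 0.39 (SE 0.79, edgeR adjusted p = 0.872).

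Il17a, made by T cells and innate lymphocytes, measured 0.150, 0.209, 0.215, 1.33 and 0 CPM with saline and 0.682, 0.448, 0.859, 0.161 and 8.50 CPM with ointment. Ointment 5 was 6.40 times the next library, saline 4. The log2 fold change was 2.48 (SE 1.31, edgeR adjusted p = 0.379), and it was 0.49 without ointment 5 and 3.85 without saline 4. Of the interleukin 10 family, Il19 measured 0, 1.91, 0.364, 2.51 and 0.463 CPM with saline and 0.426, 1.74, 0.826, 0.305 and 9.20 CPM with ointment, again with ointment 5 highest. Its log2 fold change was 1.25 (SE 1.24, edgeR adjusted p = 0.691), and -0.35 without ointment 5.

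Ointment 5 held the highest value of 22 of the 70 genes, 31.4% against 17.6% of all genes tested. Saline 2 held the highest value of 15, 21.4% against 7.87%. Saline 1 held the lowest value of 20, 28.6% against 13.6%. In saline 1 Il1b stood at 8.86 CPM against at least 243 CPM in every other library, and Cxcl2, a neutrophil-attracting chemokine induced by interleukin 1, stood at 2.21 CPM there.

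The summed level of neutrophil markers was also highest in ointment 5 and lowest in saline 1, but saline 2 lay below saline 4. Of 14 markers, 13 were tested, 12 had a positive log2 fold change and none passed in edgeR. At an unadjusted edgeR p under 0.05, 9 were higher, and DESeq2 called 7 higher. Of all genes tested, 49.7% were positive, 8.59% were higher at that p and DESeq2 called 9.06% in either direction. Their summed level was 855, 1941, 1319, 2735 and 1064 CPM with saline and 2292, 5035, 3275, 1695 and 7844 CPM with ointment. In every library most of the sum came from S100a8 and S100a9, with 378 and 443 CPM in saline 1 and 2521 and 3788 CPM in ointment 5. Both genes also stand on a list of interleukin-induced skin genes given below, so the sum may not reflect neutrophils alone. Ointment 2 had the next highest sum. Of the genes far above the others in ointment 5, Il6 (22.9 CPM) and Il12a (3.44 CPM) were next highest in ointment 2. Il1a (10.2 CPM), Il1b (745 CPM), Il17a (0.448 CPM) and Il19 (1.74 CPM) lay within their saline ranges there. No marker was at 0 in every library. Of 12 macrophage and monocyte markers, all 12 were positive and 2 passed as higher in edgeR (Adgre1 and Cd68), where 0.692% of all genes did. These 12 summed to 1436 to 2987 CPM in the saline and 3397 to 4262 CPM in the ointment libraries. The 8 T cell markers summed to 31.1 to 42.6 CPM with saline and to 29.3 to 42.4 CPM with ointment. Their part in the single-library values and in the receptor values below was not tested.

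**Figure D3:**
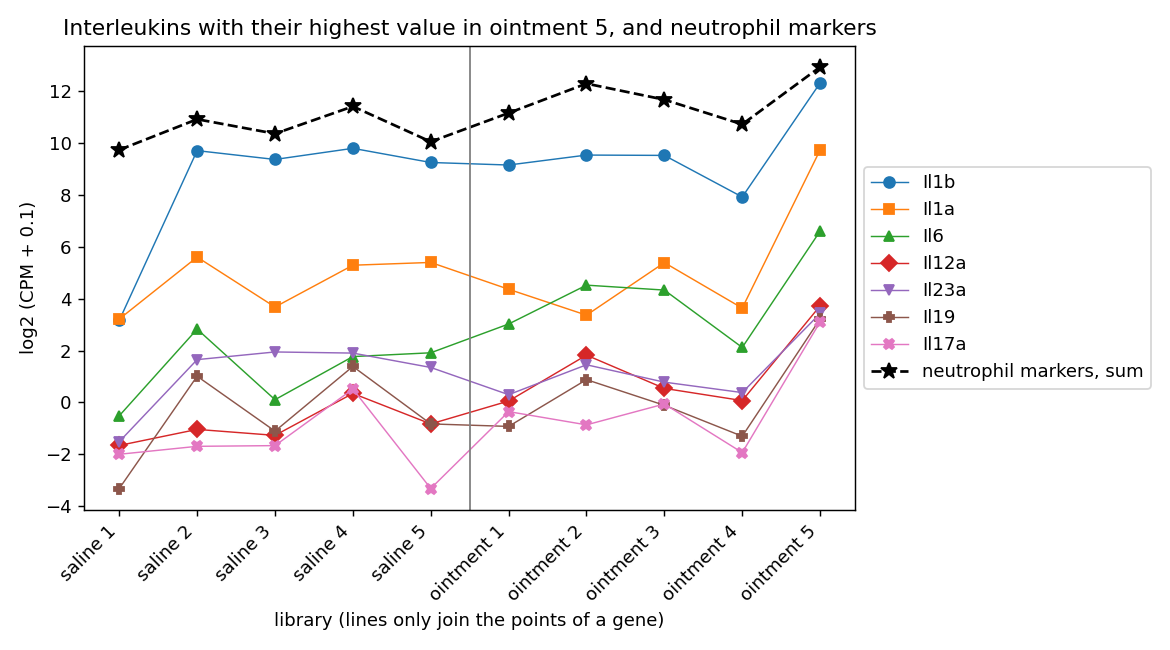
Level of 7 cytokine genes and summed level of the neutrophil markers, as log2 of CPM + 0.1 (vertical axis), in each of the 10 libraries (horizontal axis), where lines only join the points of a gene. All 7 genes and the marker sum are highest in ointment 5, and the saline 1 value of Il1b, 8.86 CPM, lies far below its other values.

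Receptor chains found on leukocytes and decoy receptors were among the other genes with positive log2 fold changes that did not pass. As a class, the 36 tested receptor chains had a median log2 fold change of 0.17, with 22 positive and 14 negative (49.7% of all genes tested were positive). The 3 decoy receptors ran from 0.17 to 1.66. Il18rap (chr1:40515362-40551705), the accessory chain of the interleukin 18 receptor, measured 7.72, 32.6, 18.7, 39.3 and 22.6 CPM with saline. With ointment it measured 52.5, 109, 90.5, 44.6 and 201 CPM. All 5 ointment libraries lay above all 5 saline libraries, although ointment 4 did so narrowly. The means were 24.2 ± 12.3 and 99.5 ± 62.6 CPM (SD, n = 5 each) and the log2 fold change 2.04 (SE 0.51), which missed the threshold in edgeR (adjusted p = 0.0778). Its partner chain, Il18r1, stood at 0.24 (SE 0.24, edgeR adjusted p = 0.694). The ligand Il18 measured 38.1, 35.4, 44.8, 29.3 and 39.3 CPM with saline and 23.8, 26.3, 25.6, 31.9 and 27.0 CPM with ointment, overlapping through ointment 4 and saline 4, with a log2 fold change of -0.47 (SE 0.13, edgeR adjusted p = 0.104).

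Il7r, the receptor for interleukin 7, measured 11.97, 13.6, 11.99, 11.9 and 11.5 CPM with saline and 23.2, 39.2, 27.3, 9.66 and 28.6 CPM with ointment. The saline libraries were nearly level and 4 of 5 ointment libraries lay above them, with ointment 4 below them all. The log2 fold change was 1.07 (SE 0.30, edgeR adjusted p = 0.103), and without ointment 4 the gene passed the test. Il1r2, the decoy receptor that binds interleukin 1 without signalling, measured 36.1, 147, 108, 124 and 109 CPM with saline and 152, 296, 216, 116 and 608 CPM with ointment. Ointment 4 lay inside the saline range and the other 4 above it, with a log2 fold change of 1.41 (SE 0.49, edgeR adjusted p = 0.175).

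Il1r1, the signalling receptor for interleukin 1, had a log2 fold change of 0.28 (SE 0.45, edgeR adjusted p = 0.833). The ratio of Il1r2 to Il1r1 normalized counts, chosen after its values were seen, was 0.401 to 0.967 in the saline and 0.790 to 3.28 in the ointment libraries, so the ranges overlapped. Il1rap, the accessory chain of that receptor, stood at 1.14 (SE 0.48, edgeR adjusted p = 0.257). Il1rn, the interleukin 1 receptor antagonist, measured 72.7 ± 44.5 CPM with saline and 95.3 ± 35.3 CPM with ointment (SD, n = 5 each), a log2 fold change of 0.39 (SE 0.47, edgeR adjusted p = 0.752).

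**Figure D4:**
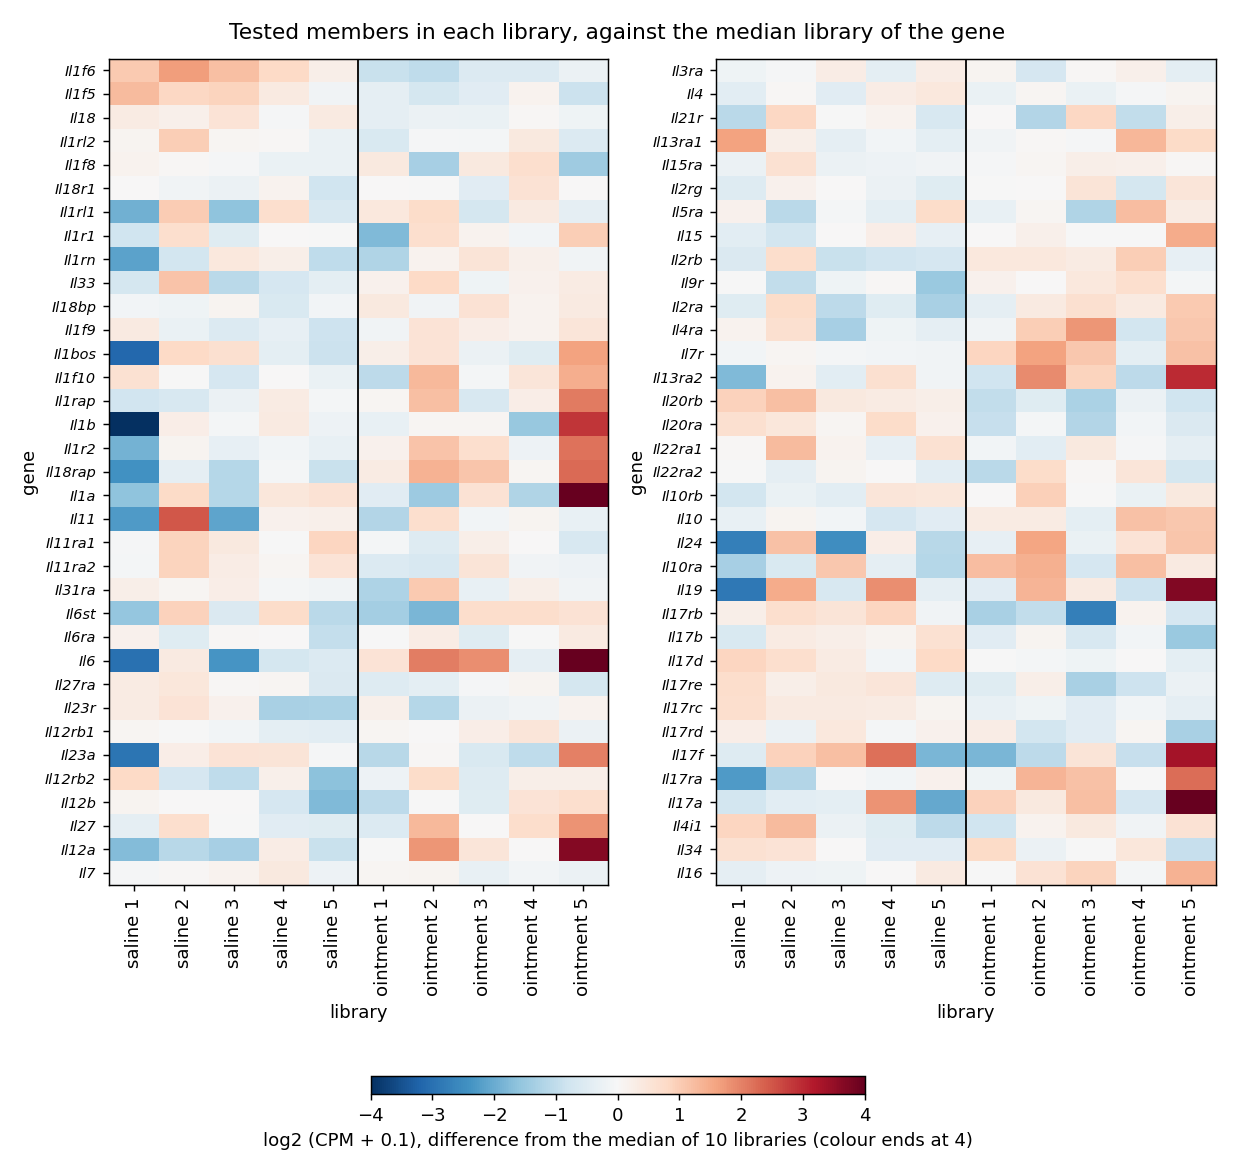
Level of each of the 70 tested interleukin genes (rows) in the 10 libraries (columns), as the difference in log2 of CPM + 0.1 from the median library of the gene, with colours ending at a difference of 4 either way. Il1f6 is below its median in all 5 ointment columns, while the darkest red, in Il1a, Il6, Il12a, Il17a and Il19, is in the ointment 5 column.

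Il33 encodes an alarm cytokine stored in nuclei, and Il1rl1 its receptor ST2. Il33 measured 68.2, 245, 53.2, 69.2 and 84.8 CPM with saline and 126, 192, 98.3, 126 and 140 CPM with ointment, with saline 2 highest of all. All 5 ointment libraries lay above 4 of the 5 saline libraries, and the log2 fold change was 0.39 (SE 0.41, edgeR adjusted p = 0.708). Il1rl1 ranged from 12.9 to 98.8 CPM with saline and from 30.0 to 82.0 CPM with ointment, a log2 fold change of 0.24 (SE 0.57, edgeR adjusted p = 0.893).

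Il10, an anti-inflammatory cytokine, measured 1.70, 2.30, 1.93, 1.28 and 1.52 CPM with saline and 2.68, 2.67, 1.57, 4.91 and 4.58 CPM with ointment. Only ointment 3 lay within the saline range, and the log2 fold change was 0.91 (SE 0.33, edgeR adjusted p = 0.192). Il24 ranged from 0.350 to 6.59 CPM with saline and from 2.28 to 8.84 CPM with ointment, a log2 fold change of 0.99 (SE 0.79, edgeR adjusted p = 0.602).

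Among genes of type 2 immunity, Il4 was low and level, at 0.726 ± 0.227 CPM with saline and 0.671 ± 0.0932 CPM with ointment (SD, n = 5 each; log2 fold change -0.11, edgeR adjusted p = 0.905). Il4ra, the receptor chain for interleukins 4 and 13, ranged from 34.2 to 133 CPM with saline and from 50.8 to 288 CPM with ointment, a log2 fold change of 0.93 (SE 0.48, edgeR adjusted p = 0.37). Il13ra1, its partner, stood at 0.09 (SE 0.45, edgeR adjusted p = 0.955), with saline 1 highest at 233 CPM. Il13ra2, the decoy receptor for interleukin 13, measured 3.16, 12.1, 8.27, 17.4 and 10.1 CPM with saline and 6.26, 41.3, 20.7, 5.28 and 87.7 CPM with ointment. Ointment 2, 3 and 5 lay above the saline range, and the log2 fold change was 1.66 (SE 0.77, edgeR adjusted p = 0.307), or 0.85 without ointment 5. Il2rg, the common gamma chain, stood at 0.30 (SE 0.23, edgeR adjusted p = 0.586), and 728 bases of its exons are shared with Gm20489. Il34, a ligand of the macrophage growth factor receptor, stood at -0.0034 (SE 0.35, edgeR adjusted p = 0.999).

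Il17d had a log2 fold change of -0.76 (SE 0.28, edgeR adjusted p = 0.194) at 1.002 ± 0.274 CPM with saline and 0.591 ± 0.0757 CPM with ointment (SD, n = 5 each). Per transcript length, the levels next to Il1b were those of Il1r2 (54.8 CPM per kb with saline and 146 with ointment), Il11ra1 (72.0 and 46.5) and Il1a (15.4 and 94.96), by the mean over the 10 libraries. The place of Il1a rests on ointment 5, since with saline it stood below Il1f6 (54.5 CPM per kb), Il18 (36.3) and Il33 (36.0).

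Genes that interleukins are known to induce were read from lists. Of 12 genes induced by interleukin 1, 11 had a positive log2 fold change with a median of 1.43, none passed in edgeR, 7 were higher at an unadjusted p under 0.05 and DESeq2 called 5 higher. Of 8 genes induced by the interleukin 6 family, 7 were tested and all 7 were positive with a median of 1.08, none passed in edgeR, 2 were higher at an unadjusted p under 0.05 and DESeq2 called 2 higher. Of 11 genes induced by interleukins 4 and 13, 8 were positive with a median of 0.59, none passed in edgeR, 4 were higher and 1 lower at an unadjusted p under 0.05, and DESeq2 called 4 higher. Of 9 skin genes induced by interleukins 17 and 22, which include the neutrophil markers S100a8 and S100a9, 7 were tested and 6 were positive with a median of 1.26, none passed in edgeR, 4 were higher at an unadjusted p under 0.05 and DESeq2 called 2 higher. Over all genes tested the median was -0.0025 and 49.7% were positive. At an unadjusted edgeR p under 0.05, 8.59% of all genes were higher and 8.56% lower. DESeq2 called 9.06% of all genes in either direction, and 17.6% had their highest value in ointment 5. The highest library was ointment 5 for 11 of the 12 tested genes of the interleukin 1 list, 5 of 7 of the interleukin 6 list, 6 of 11 of the interleukin 4 and 13 list and 5 of 7 of the interleukin 17 and 22 list. The summed level of the interleukin 1 list ran from 193 to 1447 CPM with saline and from 595 to 12860 CPM with ointment, where the sum of ointment 5 was carried largely by Cxcl2 (4109 CPM) and Ptgs2 (3099 CPM).

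The remaining lists held genes that work with these receptors. Of 24 signalling genes without an Il symbol, such as kinases and STAT factors, 19 had a positive log2 fold change with a median of 0.25, none passed in edgeR, 2 were higher and 2 lower at an unadjusted p under 0.05, and DESeq2 called 1 lower. Of 10 related cytokines without an Il symbol, all 10 were positive with a median of 0.74, none passed in edgeR, 2 were higher at an unadjusted p under 0.05 and DESeq2 called 1 higher. Of 5 genes that act in the maturation or release of interleukin 1 family cytokines, 2 were positive with a median of -0.09 and none passed in edgeR. At an unadjusted edgeR p under 0.05, 1 was higher, and DESeq2 called 1 higher. The gene at that edgeR p was Gsdmd (log2 fold change 0.31), while Casp1 stood at -0.09. Of all genes tested, 49.7% were positive, and 8.59% were higher and 8.56% lower at that p. DESeq2 called 9.06% of them in either direction. The 2 higher and 2 lower of the 24 signalling genes were near those shares.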

How the data were processed

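Total RNA of 10 ulcer samples was sequenced. Per the labels' protocols the libraries were built with a SMARTer mRNA kit, and nothing there states that strand was kept. The submitters' processing notes name the builds GRCm38 and mm10, with the aligner and the counting tool not given in the sources used here. Whole numbers per gene were deposited by the authors, and among them multiples of 4 were overrepresented (the value 4 occurred 9202 times and the value 3 4235 times), so they were handled as estimated counts and used as deposited. Coordinates and exon lengths came from GENCODE M21, in which 55240 of 55421 identifiers were found.

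Genes were filtered with filterByExpr (minimum count 10, minimum total 15), scaled by the trimmed mean of M-values and tested, ointment against saline, with edgeR 4.0.16 (quasi-likelihood F-test, R 4.3.3) over 5 libraries per group. With 3 counts taken as the floor, the depth allowed levels down to 0.0475 to 0.0639 CPM. These floors cover counting error only. DESeq2 1.42.0, limma 3.58.1 (voom), other scalings and filters, a replicate block and leaving out libraries were tried as alternatives. Tested on simulated data of this comparison with 17974 genes, the edgeR fit found 10.9% of the genes given a 2-fold change. At a 4-fold change it found 65.6%. It made 74 calls, of which 1.4% were false. The simulated counts were drawn separately for each gene, with no shift shared by many genes of 1 library. These rates may therefore not hold for the real libraries.

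Genes were named if they passed the threshold, were among the 15 smallest p-values or the 10 highest levels per kb, had a library at least 3 times the next, or stood on a list of well-known interleukin genes; others are marked. The members and lists were chosen with earlier results of these data known. Signed differences are ointment minus saline.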

Additional observations from a re-analysis of the deposited data

Results flagged for a closer look

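Each interleukin gene named by the rule was examined in each group of 5 libraries for a single library far from the other 4. This was the case in 13 of 72 groups, 18.1%. Chance gives about 1 in 20 for normally distributed values, a rate that does not apply here, since the rule itself names genes with a library at least 3 times the next. Over all 70 tested interleukin genes the share was 14.3% of 140 groups, and over all genes tested it was 9.36% of 37014 groups. Of the 13, 7 concerned ointment 5, which stood above the other ointment libraries with 852 CPM of Il1a, 5116 CPM of Il1b, 97.3 CPM of Il6, 13.1 CPM of Il12a, 8.50 CPM of Il17a, 9.20 CPM of Il19 and 10.7 CPM of Il23a. Saline 2 stood above the other saline libraries with 245 CPM of Il33, 16.3 CPM of Il11 and 13.6 CPM of Il7r. For Il7r the spread of the saline libraries was small, since the next highest measured 11.99 CPM. Saline 4 stood apart with 1.17 CPM of Il12a and 1.33 CPM of Il17a, and saline 1 with 233 CPM of Il13ra1. Each of these values rests on 1 library, and the cause was not tested.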

How the results depend on the processing

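The count of interleukin genes lower with the ointment was 3, and it was 6 with DESeq2's Wald test, 0 with the replicate block and 0 with 4 libraries per group (without saline 1 and ointment 5). It was 2 with no low-count filter and 1 to 4 when 1 library was left out. In 8 of those 10 fits only Il1f6 passed; the exceptions were the fits without saline 5 (4 genes) and without ointment 4 (3 genes). The count of higher genes was 0, against 6 with DESeq2's Wald test and 0 to 1 when 1 library was left out. Saline and ointment samples of the same number shared little of their deviation from the group means (correlations of -0.0772 to 0.0562). These correlations cannot settle whether the samples were paired by design. The block left 0 of all genes past the threshold against 310 without it, with 19 interleukin genes at an unadjusted edgeR p under 0.05. For Il1f6, Il20rb and Il17rc the block gave adjusted p of 0.175, 0.161 and 0.169 in edgeR.

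The following log2 fold changes, none past the threshold, changed sign. With voom they were 0.035 for Il11, -0.0032 for Il1r1, -0.058 for Il23a, 0.043 for Il34 and -0.036 for Il6st, and the block gave 0.18 for Il11. With 4 libraries per group they were -0.67 for Il19, -0.75 for Il1a, -0.39 for Il1b, -0.13 for Il1r1, -0.97 for Il23a, 0.33 for Il34 and -0.26 for Il6st. Il34 was also 0.0044 with DESeq2's size factors, 0.010 with a mean CPM filter of 1, 0.0044 with DESeq2's Wald test and 0.0082 with counts divided by 4. Leaving out 1 library gave ranges of -1.09 to 0.55 for Il11, -0.21 to 0.63 for Il13ra1, -0.35 to 1.85 for Il19, -0.51 to 2.93 for Il1a, -0.070 to 1.58 for Il1b, 0.01 to 0.54 for Il1r1, -0.011 to 0.71 for Il1rl1, -0.67 to 0.62 for Il23a, -0.23 to 0.17 for Il34, -0.23 to 0.026 for Il4 and -0.13 to 0.47 for Il6st. The cause was not tested.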

Other observations

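Of the 85 interleukin rows, 15 were too low to test. They were 2 of the 3 Il11ra2 rows and Il1rapl2, which had no count in any library, and Il13, Il17c, Il1rapl1, Il2, Il20, Il21, Il22, Il25, Il3, Il31, Il5 and Il9. Il13, a cytokine of type 2 immunity, had 0, 12, 4, 9 and 5 counts in the saline libraries and 26, 4, 0, 14 and 10 in the ointment libraries. Il22, which acts on keratinocytes, had 4, 6, 12, 0 and 0 counts with saline and 0, 12, 0, 0 and 0 with ointment. Il5, the growth factor of eosinophils, had 0, 4, 9, 0 and 4 counts with saline and 7, 8, 0, 0 and 4 with ointment. Differences between the groups in these genes were not tested.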
